A study of Mus musculus with 24 samples.

Results

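Aminoacyl-tRNA synthetases are the enzymes that load each transfer RNA with its amino acid, and 37 of their genes were examined in corpus callosum of mice, the band of myelinated axons between the cerebral hemispheres. They were chosen by symbol, as the amino acid's letter followed by "ars" with an optional suffix, among 21918 protein-coding IDs of the 54446 gene IDs in the table. The symbols gave 20 cytosolic enzymes and 17 mitochondrial enzymes (suffix 2), and all 37 genes passed the filter on low values. The symbol rule itself uses no expression value, but it was set with earlier results of these data known. Kars and Gars each encode both the cytosolic and the mitochondrial enzyme from 1 gene and were counted as cytosolic. Eprs, which loads glutamate and proline in the cytosol, falls outside the symbol pattern and is described beside the members.

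Translation runs in 2 compartments of the cell, and most amino acids have a separate synthetase gene for each. Several cytosolic enzymes are held together with scaffold proteins in the multisynthetase complex, while the others are free. In the integrated stress response, phosphorylation of the initiation factor eIF2 slows general translation and raises ATF4, a transcription factor whose known targets include many cytosolic synthetases, amino acid transporters and enzymes of amino acid synthesis. In oligodendrocytes, the cells that make myelin, this response is known from demyelinating injury, and inherited defects of several synthetases cause white matter disease in humans.

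The 24 libraries of polyadenylated RNA fell into 4 groups. Cuprizone BTKi (n = 8) came from cuprizone-fed mice given an inhibitor of Bruton's tyrosine kinase (BTKi) once disease had been induced. Cuprizone vehicle (n = 8) came from cuprizone-fed mice given vehicle. Naive BTKi (n = 4) and naive vehicle (n = 4) came from mice without cuprizone that received the inhibitor or vehicle. Cuprizone is a copper chelator that kills oligodendrocytes, and BTK is a signalling kinase of B cells and of myeloid cells such as microglia. The sources used here do not give the strain, age, compound, dose or times of treatment. The labels do not name separate animals for the libraries, and the p-values cover only the spread among these 24 samples, part of which may be technical.

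Values are FPKM, the fragments of a gene scaled to its length and to the total of the library. From the spacing of low values, depth came to 2.65e+07 fragments in the shallowest library (cuprizone BTKi 5), at least 2.98e+07 in the other 23 and at most 3.10e+07. In cuprizone vehicle libraries against naive vehicle libraries, 13 of 13 myelin markers fell, 9 of 11 microglia and macrophage markers rose, and of 7 astrocyte markers 5 rose and 1 fell. Summed over the list, myelin markers ran from 1121 to 1846 FPKM in cuprizone vehicle libraries and from 3550 to 4985 FPKM in naive vehicle libraries. Microglia and macrophage markers ran from 160 to 509 FPKM in cuprizone vehicle libraries and from 93.3 to 118 FPKM in naive vehicle libraries. Tissue from outside the tract also varied: striatal neuron markers summed to 642 FPKM in naive vehicle 2 and to between 218 and 367 FPKM in the other 3 naive vehicle libraries, and choroid plexus markers summed to 29.7 to 122 FPKM in cuprizone vehicle 1, 4 and 7 and to between 750 and 1517 FPKM in the other 5. The 4 neutrophil markers were near 0, with 1 of them listed at 0 in every library. In bulk tissue, fewer cells of a type and less RNA per cell cannot be told apart.

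As a class, cytosolic synthetase transcripts stood above the mitochondrial ones in this tissue. Averaged over the 24 libraries, the cytosolic genes ran from 10.2 FPKM (Lars) to 86.3 FPKM (Sars) with a median of 22.1 FPKM. The mitochondrial genes ran from 1.35 FPKM (Wars2) to 10.9 FPKM (Iars2) with a median of 6.36 FPKM, against 8.02 FPKM for all 15216 genes tested. By these means the 2 classes overlapped only between 10.2 and 10.9 FPKM, where Iars2 and Tars2 lay among Tars and Lars. In each library the difference of the class means on the log2 FPKM scale was 2.13 ± 0.05 in cuprizone BTKi, 2.16 ± 0.04 in cuprizone vehicle, 2.09 ± 0.04 in naive BTKi and 2.04 ± 0.04 in naive vehicle (SD, n = 8, 8, 4 and 4). It was a description of the members and was not tested.

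**Figure D1:**
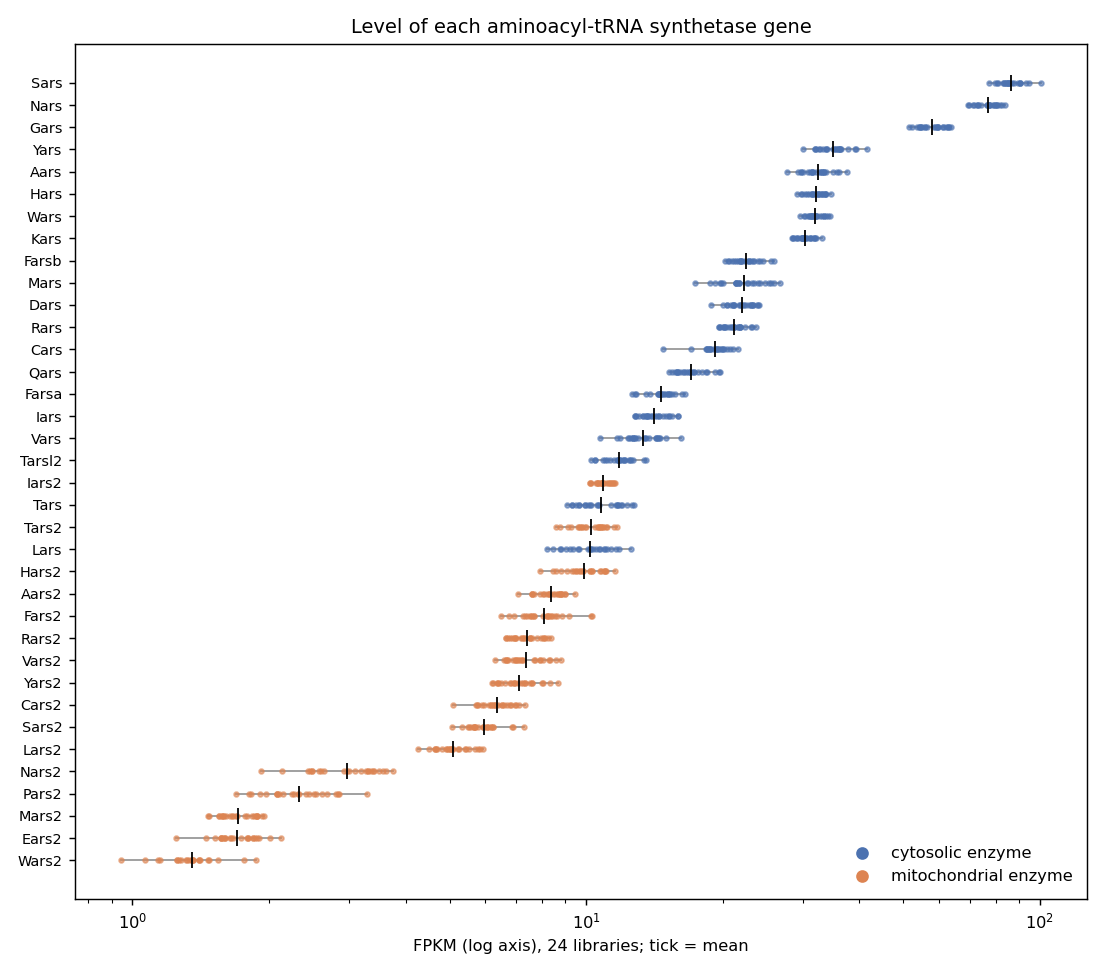
FPKM of the synthetase genes on a log axis (1 of the 37, a mitochondrial gene, is not drawn), 1 point for each of the 24 libraries and a tick at the mean, with cytosolic genes in blue and mitochondrial genes in orange. Sars is highest at a mean of 86.3 FPKM and Wars2 lowest at 1.35 FPKM. By their means the classes overlap only between 10.2 and 10.9 FPKM.

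The 3 most abundant members were Sars, which loads serine, Nars, which loads asparagine, and Gars, which loads glycine. Nars had 69.7, 76.8 and 80.5 FPKM (lowest, median, highest) in cuprizone BTKi and 71.3, 79.4 and 83.9 FPKM in cuprizone vehicle, against 69.6, 77.2, 81.5 and 77.7 FPKM in naive BTKi and 74.2, 71.6, 73.1 and 76.7 FPKM in naive vehicle. Gars had 53.7, 54.8 and 62.8 FPKM in cuprizone BTKi and 52.2, 60.4 and 63.6 FPKM in cuprizone vehicle, against 51.5, 61.2, 59.4 and 59.5 FPKM in naive BTKi and 54.6, 55.8, 55.8 and 58.8 FPKM in naive vehicle. The groups overlapped for both genes. The log2 difference between cuprizone vehicle and naive vehicle was 0.09 for Nars (limma adjusted p = 0.194) and 0.08 for Gars (adjusted p = 0.361).

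The 3 least abundant members were mitochondrial: Wars2, which loads tryptophan, Ears2, which loads glutamate, and Mars2, which loads methionine. Wars2 had 1.15, 1.29 and 1.54 FPKM (lowest, median, highest) in cuprizone BTKi and 1.31, 1.39 and 1.87 FPKM in cuprizone vehicle, against 1.07, 1.41, 1.28 and 0.945 FPKM in naive BTKi and 1.14, 1.40, 1.35 and 1.33 FPKM in naive vehicle. Ears2 had 1.25, 1.62 and 2.12 FPKM in cuprizone BTKi and 1.57, 1.82 and 2.01 FPKM in cuprizone vehicle, against 1.60, 1.79, 1.46 and 1.57 FPKM in naive BTKi and 1.52, 1.67, 1.88 and 1.57 FPKM in naive vehicle. All 4 groups overlapped for both genes, and neither passed the test in cuprizone vehicle against naive vehicle (Wars2 log2 0.13, limma adjusted p = 0.333, and Ears2 log2 0.08, adjusted p = 0.555). In the shallowest library the mean level of Wars2 stood for about 213 fragments, that of Pars2, the lowest in fragments, for about 191 and that of Sars for about 11749. The SD of log2 values within groups was 0.05 to 0.14 for cytosolic genes, with a median of 0.09, and 0.04 (Iars2) to 0.22 (Nars2) for mitochondrial genes, with a median of 0.13.

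Setting cuprizone vehicle against naive vehicle asks what the model itself changes. Of the 20 cytosolic synthetases 4 rose, Mars (methionine), Lars (leucine), Sars (serine) and Aars (alanine), by 1.10 to 1.22 times on the scale of the test. None of the 17 mitochondrial enzymes passed the test, at an unadjusted p under 0.05 either (limma), and no member fell. The 4 of 20 cytosolic genes stand beside 10.2% of all 15216 genes tested that rose in this comparison (15% passed in either direction and 4.82% fell). At an unadjusted p under 0.05, 9 cytosolic genes and 0 mitochondrial genes were higher, beside 18.2% of all genes, and no member was lower, beside 9.22%.

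Mars, the methionyl enzyme of the multisynthetase complex, is ENSMUSG00000040354.14 at 127296221 to 127311786 on chromosome 10, minus strand (GENCODE M21 gene models, GRCm38, as for the other coordinates). It had 21.7, 24.5 and 26.7 FPKM (lowest, median, highest) in cuprizone vehicle libraries, against 21.4, 19.2, 21.4 and 17.4 FPKM in naive vehicle libraries. Every cuprizone vehicle library lay above every naive vehicle library, by a narrow margin of 21.7 against 21.4 FPKM. The log2 difference was 0.29 (SE 0.06, 95% interval 0.17 to 0.41, limma adjusted p = 0.00107), and the call held without each library in turn (adjusted p from 0.000498 to 0.0121). Exons of Mars overlap those of Ddit3, a stress-induced transcription factor on the opposite strand, over 68 of the 3423 exon bases of Mars, and the sources used here do not say whether counting used strand. Ddit3 itself had 28.1 ± 3.71 FPKM in cuprizone vehicle and 17.6 ± 0.591 FPKM in naive vehicle (SD, n = 8 and 4).

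Lars, the leucyl enzyme of the same complex, is ENSMUSG00000024493.8 on chromosome 18. It had 10.1, 11.1 and 12.5 FPKM (lowest, median, highest) in cuprizone vehicle, against 10.2, 9.65, 9.05 and 8.75 FPKM in naive vehicle. Naive vehicle 1 overlapped the lowest cuprizone library, and the other 3 naive libraries lay below all 8. The log2 difference was 0.24 (SE 0.07, 95% interval 0.10 to 0.37, limma adjusted p = 0.0151). The call was lost without naive vehicle 3 (adjusted p = 0.0518) and without naive vehicle 4 (adjusted p = 0.0717).

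Sars and Aars act outside the complex. Sars, which also loads the transfer RNA used for selenocysteine, is ENSMUSG00000068739.13 at 108424865 to 108445209 on chromosome 3, minus strand. It had 85.6, 90.4 and 101 FPKM (lowest, median, highest) in cuprizone vehicle, against 83.4, 84.0, 79.5 and 84.8 FPKM in naive vehicle. The 2 groups did not overlap, but the gap between them was less than 1 FPKM. The log2 difference was 0.14 (SE 0.04, 95% interval 0.06 to 0.22, limma adjusted p = 0.0146), and the call was lost without naive vehicle 3 (adjusted p = 0.0670).

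Aars is ENSMUSG00000031960.14 at 111033144 to 111057664 on chromosome 8, plus strand. It had 31.5, 34.3 and 37.6 FPKM (lowest, median, highest) in cuprizone vehicle, against 32.7, 30.1, 29.7 and 30.8 FPKM in naive vehicle. The groups overlapped through naive vehicle 1. The log2 difference was 0.16 (SE 0.05, 95% interval 0.06 to 0.26, limma adjusted p = 0.0229), and the call was lost without naive vehicle 2, 3 or 4 (adjusted p = 0.0728, 0.0801 and 0.0538). Of its annotated exon bases, 14.3% are shared with Exosc6 on the same strand, a gene listed at 0 in the table. The sources used here do not say how reads of those bases were assigned. The 0 therefore does not show that Exosc6 adds nothing to the values of Aars.

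Mars and Sars were the 2 members of 37 whose cuprizone vehicle libraries all lay above the naive vehicle libraries, a state shared by 5.92% of all genes tested, and no member showed the opposite order (2.85% of all genes). The number of enzymes that passed was 1 (Mars) without naive vehicle 3 and 2 without naive vehicle 4. It was 6 without naive vehicle 1, where Cars and Yars were added. Without the 3 cuprizone vehicle libraries low in choroid plexus markers, a choice made after seeing the data, 5 cytosolic enzymes passed. Rars, which loads arginine, was the addition (log2 0.12, limma adjusted p = 0.0419). Without those 3 and naive vehicle 2 as well, 4 passed, with Rars added (log2 0.16, adjusted p = 0.0120), Mars at 0.22 (adjusted p = 0.0355) and Aars no longer past the threshold (adjusted p = 0.0511). Beside these calls, 7 of 7 striatal neuron markers fell, 0 of 6 general neuron markers and 0 of 6 choroid plexus markers passed, and the myelin and microglia lists moved as given above. The part of cell composition in these differences was not tested.

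**Figure D2:**
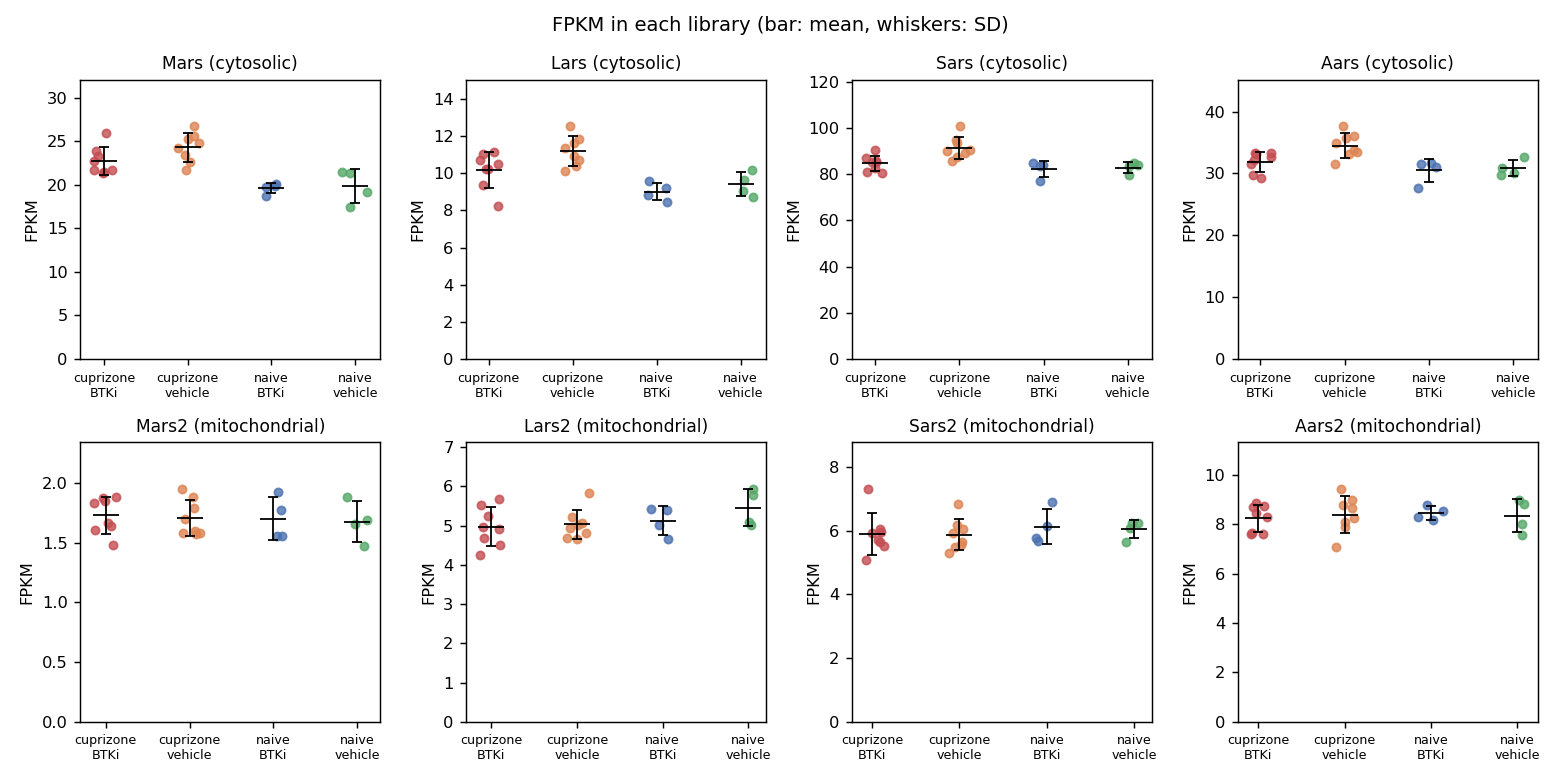
FPKM in each library for the 4 cytosolic enzymes that passed the test (upper row) and their mitochondrial partners (lower row), by group, with the mean as a bar and the SD as whiskers. For Mars the cuprizone vehicle libraries lie at 21.7 FPKM or above, over all 4 naive vehicle libraries, while for Mars2 the groups overlap.

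The mitochondrial partner for the same amino acid did not pass the test for any of these 4. Mars2 had 1.57, 1.65 and 1.95 FPKM (lowest, median, highest) in cuprizone vehicle, against 1.66, 1.47, 1.69 and 1.88 FPKM in naive vehicle (log2 0.02, limma adjusted p = 0.886). Lars2 had 4.65, 4.98 and 5.84 FPKM in cuprizone vehicle, against 5.03, 5.94, 5.78 and 5.10 FPKM in naive vehicle (log2 -0.11, adjusted p = 0.334). In both genes the naive vehicle libraries lay inside or across the range of the cuprizone vehicle libraries. Sars2 had 5.32, 5.79 and 6.86 FPKM in cuprizone vehicle, against 6.24, 6.24, 6.08 and 5.66 FPKM in naive vehicle (log2 -0.04, adjusted p = 0.754). Aars2 had 7.07, 8.47 and 9.43 FPKM in cuprizone vehicle, against 8.82, 7.58, 8.98 and 8.03 FPKM in naive vehicle (log2 0.01, adjusted p = 0.964). These groups overlapped as well. Within groups the SD of log2 values was 0.12 for Sars2 against 0.06 for Sars, and 0.10 for Aars2 against 0.08 for Aars. It was 0.10 for Mars2 and Mars and 0.11 for Lars2 and Lars. A shift as small as that of Sars or Aars would pass less readily in their partners, so not passing does not show that a partner was unchanged.

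Across the class, all 20 cytosolic genes had a log2 difference above 0, from 0.00 (Farsb, a subunit of the phenylalanine enzyme) to 0.29 (Mars), with a median of 0.09. Of all genes tested, 59.3% were above 0 and the median was 0.03. After median ratio scaling or quantile normalization, which lowered the median of all genes by at most 0.04, 18 of the 20 remained above 0. The mitochondrial genes ran from -0.19 (Pars2, proline) to 0.13 (Wars2), with a median of 0.00, and 9 of 17 were above 0 (6 of 17 under either of those scalings). Summed over the 20 cytosolic genes, the lowest, median and highest libraries had 571, 603 and 630 FPKM in cuprizone vehicle, against 569, 561, 554 and 559 FPKM in naive vehicle. Summed over the 17 mitochondrial genes the mean was 103 ± 2.99 FPKM in cuprizone vehicle and 104 ± 2.40 FPKM in naive vehicle (SD, n = 8 and 4).

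Among cytosolic enzymes just short of the adjusted threshold, Yars (tyrosine) had a log2 difference of 0.15 (limma adjusted p = 0.0709), Vars (valine) 0.15 (adjusted p = 0.0969) and Qars (glutamine) 0.14 (adjusted p = 0.129). Of the 7 cytosolic enzymes that belong to the multisynthetase complex, 2 passed with a median log2 difference of 0.08 over the 7. Of the 13 outside it, 2 passed with a median of 0.09. By catalytic fold, 2 of 9 class I enzymes passed (median 0.14) and 2 of 11 class II enzymes passed (median 0.08). Among the members the calls were therefore spread over complex and free enzymes and over both folds. Eprs, a further enzyme of the complex, falls outside the symbol pattern and is not in these counts. It passed as well in this comparison, with its values given below. Wars (tryptophan), an interferon-inducible gene in human cells, had a log2 difference of 0.03 (adjusted p = 0.596).

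**Figure D3:**
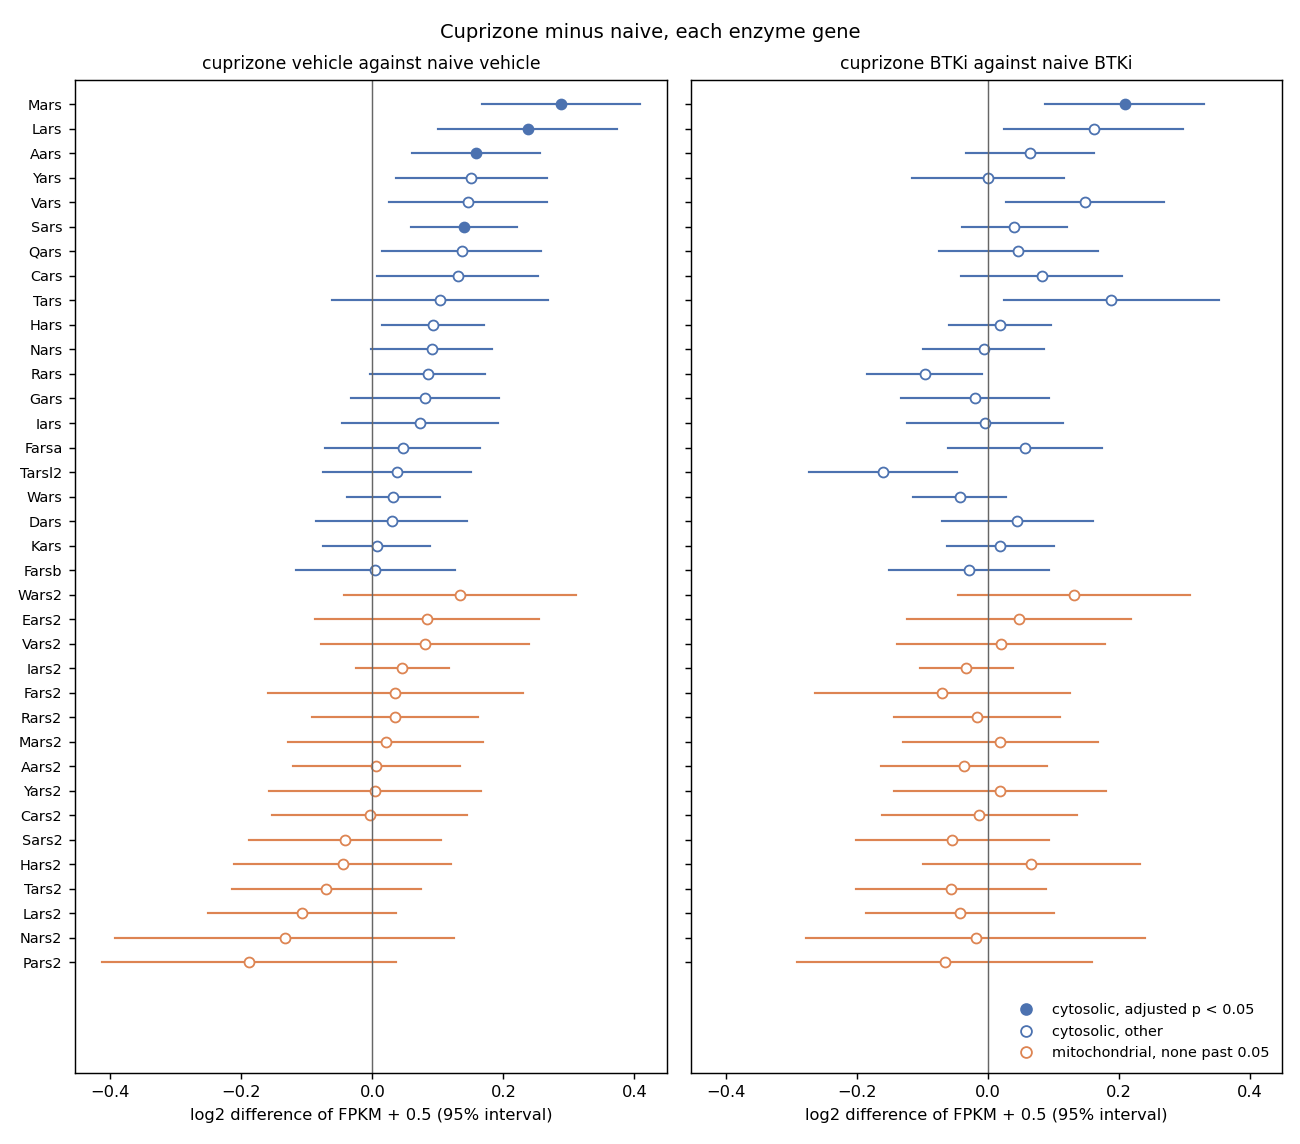
Log2 difference of FPKM + 0.5 with its 95% interval for the synthetase genes (1 of the 37, a mitochondrial gene, is not drawn), cuprizone vehicle against naive vehicle on the left and cuprizone BTKi against naive BTKi on the right, with filled points where the limma adjusted p was under 0.05. On the left all 20 cytosolic genes lie above 0 and 4 pass. On the right 13 of 20 lie above 0 and Mars passes.

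Cuprizone was also compared with naive mice under the inhibitor, between the means of the 12 libraries outside the vehicle comparison. Both comparisons came from the same limma model, whose estimate of the spread uses all 24 libraries. Their p-values are therefore not independent. Mars was the 1 member of 37 that passed there, beside 7.87% of all genes that passed in either direction, 6.11% that rose and 1.77% that fell. Mars had 21.4, 22.2 and 25.9 FPKM (lowest, median, highest) in cuprizone BTKi, against 18.7, 19.9, 20.1 and 19.7 FPKM in naive BTKi. The 2 groups did not overlap. The log2 difference was 0.21 (SE 0.06, 95% interval 0.09 to 0.33, limma adjusted p = 0.0246). The call was lost without naive BTKi 1, 2 or 4 (adjusted p = 0.0946, 0.0523 and 0.0597), and after median ratio scaling (adjusted p = 0.0621).

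In the same comparison 13 of 13 myelin markers fell, 9 of 11 microglia and macrophage markers rose, 5 of 7 astrocyte markers rose and 0 of 7 striatal markers passed. Myelin markers summed to 1259 to 2687 FPKM in cuprizone BTKi and to 3081 to 3145 FPKM in naive BTKi. Their part in the difference of Mars was not tested.

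Lars, Sars and Aars did not pass under the inhibitor. Lars had 8.22, 10.4 and 11.1 FPKM (lowest, median, highest) in cuprizone BTKi, against 8.47, 9.58, 9.20 and 8.82 FPKM in naive BTKi (log2 0.16, limma adjusted p = 0.170). Sars had 80.6, 85.2 and 90.4 FPKM in cuprizone BTKi, against 77.3, 83.4, 84.1 and 84.9 FPKM in naive BTKi (log2 0.04, adjusted p = 0.648). Aars had 29.2, 32.4 and 33.4 FPKM in cuprizone BTKi, against 27.7, 31.6, 31.5 and 31.1 FPKM in naive BTKi (log2 0.06, adjusted p = 0.516). In all 3 genes the groups overlapped. Without cuprizone BTKi 7, Lars passed as well (adjusted p = 0.0274).

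The mitochondrial partners did not pass under the inhibitor either, and their groups overlapped. Mars2 had 1.48, 1.75 and 1.88 FPKM (lowest, median, highest) in cuprizone BTKi, against 1.55, 1.55, 1.93 and 1.77 FPKM in naive BTKi, and Lars2 had 4.25, 4.94 and 5.69 FPKM in cuprizone BTKi, against 4.65, 5.44, 5.41 and 5.02 FPKM in naive BTKi. Sars2 had 5.07, 5.82 and 7.32 FPKM in cuprizone BTKi, against 6.91, 5.77, 5.69 and 6.17 FPKM in naive BTKi. Aars2 had 7.60, 8.39 and 8.85 FPKM in cuprizone BTKi, against 8.19, 8.56, 8.28 and 8.79 FPKM in naive BTKi.

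Over the class, 13 of 20 cytosolic genes were above 0 in cuprizone BTKi against naive BTKi, with a median log2 difference of 0.03, beside 58% of all genes and a median of 0.02. Of the 17 mitochondrial genes 6 were above 0, with a median of -0.02. In limma's unadjusted p-values under 0.05, the cytosolic genes gave 4 higher and 2 lower and the mitochondrial genes gave 0, beside 13.4% of all genes higher and 5.1% lower.

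The lower members were Tarsl2, a cytosolic threonine enzyme encoded by a second gene, and Rars. Tarsl2 had 10.3, 11.4 and 12.1 FPKM (lowest, median, highest) in cuprizone BTKi, against 11.7, 12.1, 13.4 and 13.5 FPKM in naive BTKi (log2 -0.16, SE 0.05, limma adjusted p = 0.0761). It passed after median ratio scaling (log2 -0.19, adjusted p = 0.0233), after quantile normalization, without naive BTKi 1 (adjusted p = 0.0435) and without cuprizone vehicle 1 (adjusted p = 0.0475). Rars averaged 20.6 ± 0.514 FPKM in cuprizone BTKi and 22.1 ± 1.13 FPKM in naive BTKi (SD, n = 8 and 4), a log2 difference of -0.10 (adjusted p = 0.209). Its groups did not overlap, as for 1.47% of all genes in that direction. The margin was narrow, with 21.1 FPKM highest in cuprizone BTKi and 21.2 FPKM lowest in naive BTKi. Mars was the 1 member with separate groups in the other direction, beside 5.7% of all genes.

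BTKi was compared with vehicle in cuprizone mice and in naive mice, which asks what the drug changes with and without the lesion. Summed myelin markers ran from 3081 to 3145 FPKM in naive BTKi and from 3550 to 4985 FPKM in naive vehicle. They ran from 1259 to 2687 FPKM in cuprizone BTKi and from 1121 to 1846 FPKM in cuprizone vehicle. The part of cell composition in the drug comparisons, and in the difference between the drug effects, was not tested. No member passed in either comparison by limma, beside 0.177% of all genes in cuprizone mice and 0.217% in naive mice. At an unadjusted p under 0.05 in cuprizone mice, 7 of 37 members were lower and 0 were higher, beside 6.53% of all genes on the lower side and 2.26% on the higher. These 7 were Sars, Iars2, Aars, Yars, Wars, Lars and Vars, of which 6 are cytosolic. Iars2, the mitochondrial one, shares 22.9% of its exon bases with Rab3gap2 on the opposite strand, a gene at 16.6 FPKM, so reads of the 2 cannot be told apart if counting did not use strand. Sars had the smallest p, with 84.8 ± 3.28 FPKM in cuprizone BTKi and 91.5 ± 4.74 FPKM in cuprizone vehicle (SD, n = 8 each), a log2 difference of -0.11 (SE 0.03, limma unadjusted p = 0.00217, adjusted p = 0.227). None of the 7 had an adjusted p under 0.227.

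Of the 20 cytosolic genes, 5 had a log2 difference above 0 in cuprizone BTKi against cuprizone vehicle, with a median of -0.06. Of the 17 mitochondrial genes 5 were above 0 (median -0.02), and of all genes 39.5% were above 0 (median -0.02). Mars averaged 22.8 ± 1.58 FPKM in cuprizone BTKi and 24.3 ± 1.65 FPKM in cuprizone vehicle, a log2 difference of -0.09 (95% interval -0.19 to 0.01, adjusted p = 0.606). Lars averaged 10.2 ± 0.969 FPKM in cuprizone BTKi and 11.2 ± 0.806 FPKM in cuprizone vehicle, a log2 difference of -0.13 (95% interval -0.24 to -0.02, adjusted p = 0.461). Aars averaged 31.9 ± 1.63 FPKM in cuprizone BTKi and 34.5 ± 1.96 FPKM in cuprizone vehicle, a log2 difference of -0.11 (95% interval -0.19 to -0.03, adjusted p = 0.359). None of these differences passed over all genes. The genes were named for their values in the same cuprizone vehicle libraries, so their direction here is no independent measure and nothing is read from it.

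With an unadjusted p under 0.05 in naive mice, 1 member, Rars, was higher and none was lower, beside 4.63% of all genes higher and 8% lower. It had 21.2, 21.6, 23.7 and 21.8 FPKM in naive BTKi, against 20.2, 21.9, 20.0 and 19.7 FPKM in naive vehicle (log2 0.11, limma unadjusted p = 0.0354, adjusted p = 0.348). The 2 groups overlapped through naive vehicle 2. Of the 20 cytosolic genes 12 were above 0 (median 0.02), and of the 17 mitochondrial genes 7 were (median -0.00), beside 43.8% of all genes. Mars averaged 19.6 ± 0.589 FPKM in naive BTKi and 19.8 ± 1.93 FPKM in naive vehicle (SD, n = 4 each).

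The difference between the drug effects in cuprizone and in naive mice, which equals the difference between the cuprizone effects with and without the drug, passed for 0 of 37 members by limma, beside 0.125% of all genes. It was -0.08 for Mars (95% interval -0.25 to 0.09, adjusted p = 0.779) and -0.08 for Lars (95% interval -0.27 to 0.12, adjusted p = 0.819). It was -0.10 for Sars (95% interval -0.21 to 0.01, adjusted p = 0.561) and -0.09 for Aars (95% interval -0.23 to 0.04, adjusted p = 0.666). The loss of Lars, Sars and Aars from the calls under the drug was therefore not itself a difference that passed. At an unadjusted p under 0.05, no member was higher (4.86% of all genes were) and 2 were lower (4.88% of all genes were), namely Rars (log2 -0.18, adjusted p = 0.321) and Tarsl2 (log2 -0.20, adjusted p = 0.429).

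Within each library the cytosolic gene was set against the mitochondrial gene for the same amino acid, in 17 pairings, as a ratio of FPKM + 0.5. Fars2 and Tars2 each enter 2 pairings, with Farsa and Farsb and with Tars and Tarsl2, so the pairings are not independent. The log2 ratio was higher in cuprizone vehicle than in naive vehicle for 15 of 17 pairings, by a median of 0.13, and higher in cuprizone BTKi than in naive BTKi for 12 of 17, by a median of 0.09. No test was made of these ratios. Lars to Lars2 had the widest shift under vehicle, 0.34, with a mean log2 ratio of 1.08 ± 0.09 in cuprizone vehicle and 0.73 ± 0.15 in naive vehicle (SD, n = 8 and 4). Both genes contributed, Lars being higher and Lars2 lower in the means. Mars to Mars2 shifted by 0.27, with 3.49 ± 0.14 in cuprizone vehicle and 3.22 ± 0.21 in naive vehicle. Wars to Wars2 had the lowest value, -0.10. The groups overlapped for every pairing under vehicle. Under BTKi 1 of 17 pairings, Tars to Tars2 for threonine, had its cuprizone libraries above its naive libraries, by a mean of 0.24. The margin was narrow, with a log2 ratio of -0.005 lowest in cuprizone BTKi and -0.027 highest in naive BTKi. Of all single genes tested, 5.7% showed this order in that comparison, and no such share was taken for ratios. BTKi against vehicle gave ratios above 0 for 8 of 17 pairings in cuprizone mice (median -0.02) and for 10 of 17 in naive mice (median 0.00).

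**Figure D4:**
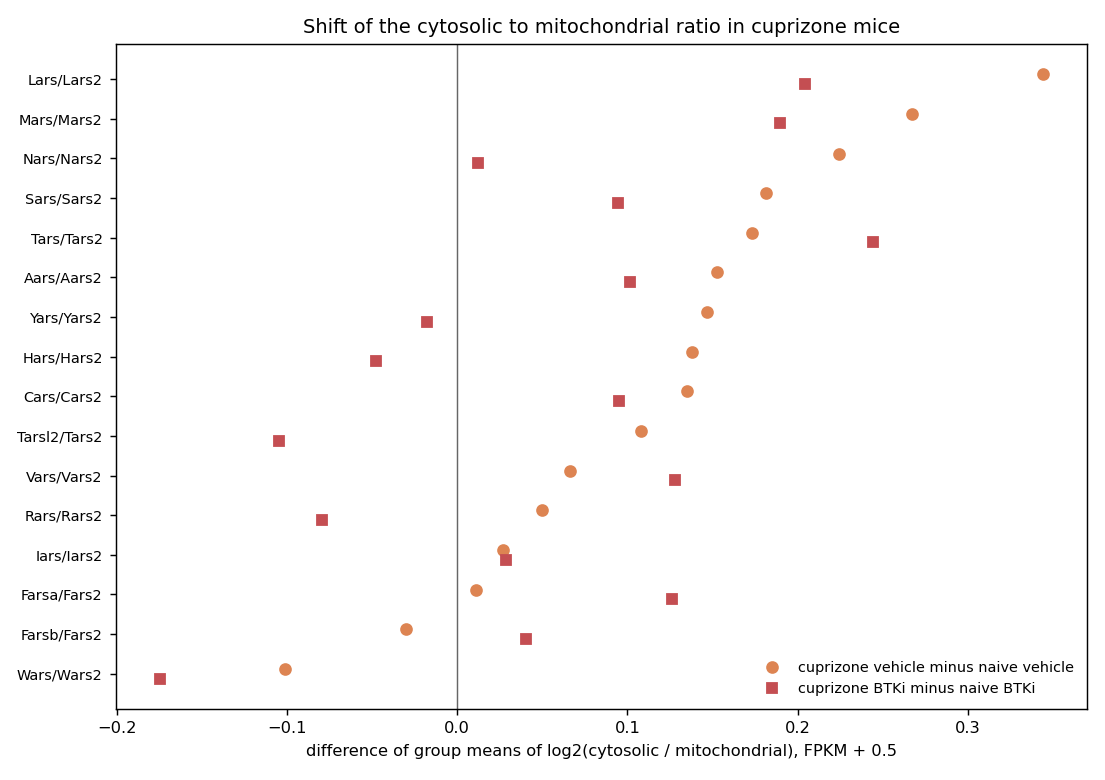
Shift of the mean log2 ratio of cytosolic to mitochondrial FPKM + 0.5 by pairing (1 of the 17 is not drawn), with circles for cuprizone vehicle minus naive vehicle and squares for cuprizone BTKi minus naive BTKi. Of all 17 pairings 15 were above 0 under vehicle, led by Lars/Lars2 at 0.34, and 12 under BTKi.

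Genes that work with the synthetases were followed in the same comparisons, where of all genes 10.2% rose and 4.82% fell under vehicle, and 6.11% rose and 1.77% fell under BTKi. Eprs, the bifunctional glutamyl-prolyl enzyme of the complex, rose in cuprizone mice under vehicle and under the drug. It averaged 23.3 ± 2.14 FPKM in cuprizone BTKi and 18.6 ± 0.298 FPKM in naive BTKi (SD, n = 8 and 4), a log2 difference of 0.31 (limma adjusted p = 0.00158). It averaged 25.5 ± 1.83 FPKM in cuprizone vehicle and 18.8 ± 1.35 FPKM in naive vehicle, a log2 difference of 0.43 (SE 0.06, adjusted p = 2.77e-05). The widest value among the 20 cytosolic members was the 0.29 of Mars. Of the scaffold proteins, Aimp1 rose under vehicle (log2 0.18, adjusted p = 0.0255), so that 2 of the 4 genes passed there and 1 of 4 under BTKi. Of 10 genes of tRNA handling, Xpot, the exporter of transfer RNA from the nucleus, rose under vehicle (log2 0.17, adjusted p = 0.0162), a count no higher than the share of all genes, and none passed under BTKi. Of 14 genes of mitochondrial translation, none passed in either by limma. An unadjusted p under 0.05 was reached by 1 higher and 1 lower gene under vehicle and by 0 under BTKi.

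Most regulators of the integrated stress response rose in cuprizone mice. Under vehicle 10 of 12 rose, with a median log2 difference of 0.61 over the 12, against 0.09 for the cytosolic enzymes. Nupr1 and Atf5, stress-induced transcription regulators, rose by 2.35 and 2.24 on the log2 scale (limma adjusted p = 4.44e-08 for both), Atf3 by 1.63 (adjusted p = 8.23e-08) and Cebpg by 0.57 (adjusted p = 2.55e-07). Atf4, whose product is controlled mainly at translation, rose by 0.19 (adjusted p = 0.00414). That lay above the median of the cytosolic enzymes and below the 0.29 of Mars. Chac1, a glutathione-degrading target of the response, had a log2 difference of -0.04 (adjusted p = 0.874). Under BTKi 9 of 12 rose, and Atf4 was at 0.07 (adjusted p = 0.446). These regulators were known to move in these samples when the list was chosen.

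Most amino acid transporters tested and a few enzymes of amino acid synthesis rose as well. Under vehicle 7 of 10 tested transporters rose and 1 fell. Slc7a11, the cystine transporter, had a log2 difference of 1.07 (limma adjusted p = 7.22e-06) and Slc3a2, the heavy chain that it shares with other carriers, 0.56 (adjusted p = 4.56e-05). Slc6a9, a glycine transporter, fell by 0.70 on the log2 scale (adjusted p = 7.49e-05). Under BTKi 5 rose and 1 fell, and Slc43a1 was below the filter. Of 11 enzymes of amino acid and one-carbon synthesis, 3 rose under vehicle: Mthfd2 (log2 0.59, adjusted p = 0.00029), Aldh18a1 (log2 0.41, adjusted p = 0.000811) and Psph (log2 0.25, adjusted p = 0.0112). Asns, the asparagine synthetase that is a textbook target of ATF4, was at -0.05 (adjusted p = 0.669). Under BTKi 3 of 11 rose, Mthfd2, Aldh18a1 and Pycr1.

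Of the 10 eIF2 kinase and eIF2B genes, Eif2ak2, the kinase that senses double-stranded RNA and is induced by interferon, rose under vehicle (log2 0.98, limma adjusted p = 3.59e-07). Under BTKi, Eif2ak2 (log2 0.73) and Eif2ak4, the kinase that senses uncharged transfer RNA (log2 0.17, adjusted p = 0.0463), rose. All 12 interferon-induced genes rose in both comparisons, led under vehicle by Ifit3 (log2 1.93, adjusted p = 4.32e-09) and Oasl2 (log2 2.23, adjusted p = 4.6e-09). In the drug comparisons 1 gene of all these lists passed, the glutamine transporter Slc38a2, which rose in naive BTKi against naive vehicle (log2 0.39, adjusted p = 0.0417).

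**Figure D5:**
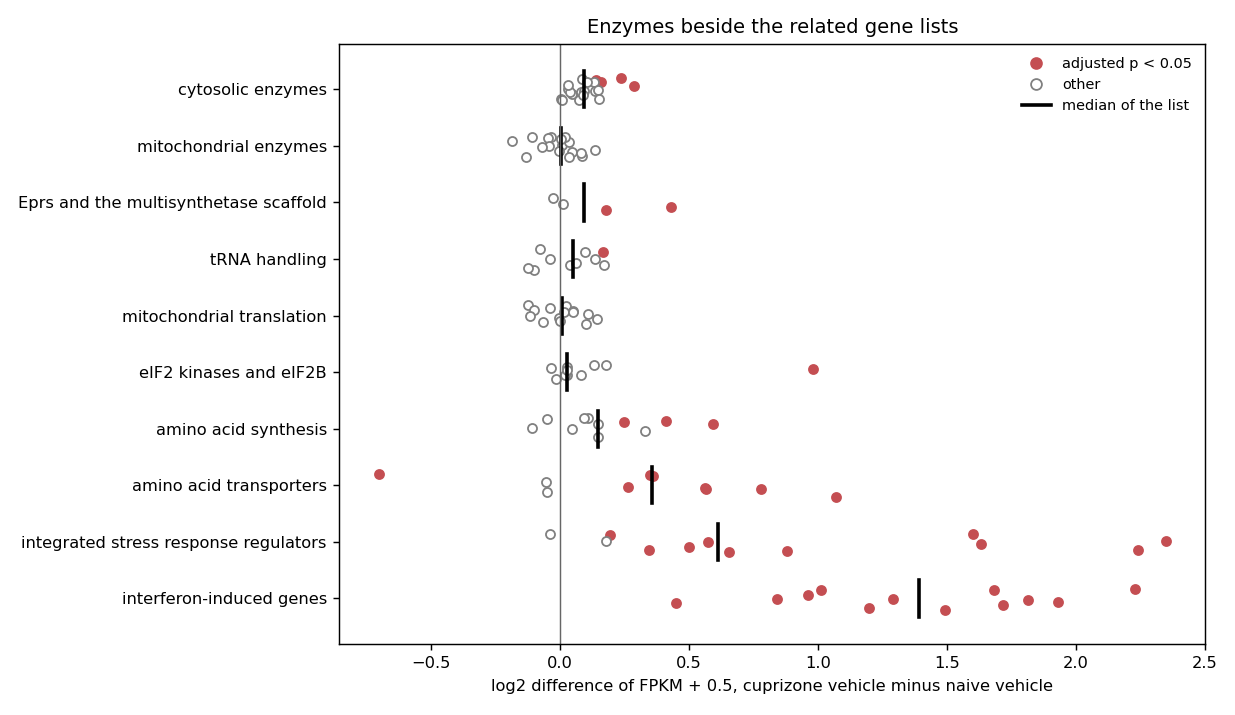
Log2 difference of FPKM + 0.5, cuprizone vehicle minus naive vehicle, for each gene of the enzyme classes and of 8 related lists, with filled points where the limma adjusted p was under 0.05 and a bar at the list's median. The cytosolic enzymes have a median of 0.09 and the stress response regulators of 0.61.

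Promoters were searched for TGATGNAA, the core of the element that ATF4 and its C/EBP partners are known to bind, on both strands of RefSeq windows of 300 bases (250 before to 50 after each start, GRCm38.p6). The windows of 13 of 20 cytosolic enzymes were in the table and 5 held the letters, Aars, Gars, Iars, Tars and Yars. The windows of 14 of 17 mitochondrial enzymes were there and none held them. Of all tested genes with a window 2.79% held them, and of all genes with a window 4.51%. The stretches of Gars and Tars, in which the letters lie before the start, are shown because neither gene passed the test while holding them, with the match in capitals as read along the gene.
Gars, chr6:55037960-55037989, plus strand: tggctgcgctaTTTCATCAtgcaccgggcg
Tars, chr15:11399659-11399684, minus strand: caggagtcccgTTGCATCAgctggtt
Both matches run on the strand opposite to the gene. The first base of the match lies 30 bases before the start in Gars and 15 bases before it in Tars. The windows of Mars and Sars, which rose, held no match, and Lars had no window in the table, so 1 of the 3 enzymes that rose and had a window held the letters.

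Among the related lists, 4 of 11 stress response regulators with a window held the letters, as did 3 of 10 synthesis enzymes, 2 of 7 transporters, 0 of 11 genes of mitochondrial translation and 0 of 4 of Eprs and the scaffold. The stretches of Nupr1, which rose, and Asns, which did not pass, are shown for comparison with the enzymes above.
Nupr1, chr7:126625562-126625591, minus strand: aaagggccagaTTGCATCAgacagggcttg
Asns, chr6:7693214-7693243, minus strand: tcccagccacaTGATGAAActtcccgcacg
Nupr1 has the 8 letters of Tars, and Asns has those of Gars on the other strand. A match describes the letters of the window and was not tested as a binding site.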

How the data were processed

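The authors deposited 1 FPKM value per gene ID and library, per the file headers. Per the labels' protocols, polyadenylated RNA was prepared with a TruSeq stranded mRNA kit. The sources used here do not give the aligner, counting tool, genome build or use of strand. Because FPKM is relative to the library's total, a gene's value also falls when others take more of it. IDs were named with GENCODE M21 (34 of 37 members with their version, and Hars, Lars and Nars without it).

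All 15216 genes averaging at least 0.5 FPKM over the 24 libraries entered 1 limma model of the 4 groups on log2(FPKM + 0.5) (limma 3.58.1, R 4.3.3, eBayes with a trend). P-values were Benjamini-Hochberg adjusted over all genes within each of 5 comparisons, with a threshold of 0.05. That scale understates changes of low genes. The fit was run on simulated data as a check of the code only. Its power for changes as small as those called here is not given. Depth came from the spacing of low values, of which 88.4% to 91.2% per library lay within 0.1 of a whole number of fragments. No count test was run, because FPKM is not a count. Other software was Python 3.11.15, pandas 2.3.3, numpy 2.4.6, matplotlib 3.10.9 and blastn 2.17.0.

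The members, the related lists and the naming rule were all set with earlier results of these data known. The rule named members past the threshold in any comparison, their partners, and the 3 highest and 3 lowest members. From each related list it named at most 4 genes past the threshold, by smallest adjusted p, and Atf4, Chac1, Asns, Slc38a2, Ddit3 and further members were added after their values were seen. Some items are not reported here.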

Additional observations from a re-analysis of the deposited data

Results flagged for a closer look

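In 9 of 148 groups of 4 or 8 libraries (37 genes in 4 groups), 1 library stood far from the others by Dixon's criterion at 95%, which chance alone meets in about 1 of 20 groups. Naive BTKi 1 was low for 3 genes: Aars at 27.7 FPKM (the other 3 at 31.1 to 31.6 FPKM), Cars at 17.0 FPKM (others at 18.7 FPKM) and Nars2 at 2.43 FPKM (others at 3.31 to 3.49 FPKM). That library also had the lowest sum over the 20 cytosolic enzymes of its group, 533 FPKM, beside 577 to 587 FPKM in the other 3. Naive BTKi 2 had 9.71 FPKM of Tars2 (others at 10.8 to 10.9 FPKM). Naive vehicle 4 was high for Cars2 at 7.01 FPKM (others at 6.17 to 6.25 FPKM) and low for Rars2 at 6.98 FPKM (others at 7.52 to 7.61 FPKM). Naive vehicle 1 had 11.1 FPKM of Tarsl2 (others at 11.8 FPKM). Cuprizone vehicle 8 had 21.7 FPKM of Cars (others at 19.3 to 20.1 FPKM), and cuprizone BTKi 8 had 7.32 FPKM of Sars2 (others at 5.07 to 6.04 FPKM).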

How the results depend on the processing

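Alternatives changed the pseudocount (0.1 and 1), the filter (none, and a mean of at least 2 FPKM, where 34 members were tested), the scaling, the samples in the fit, the spread estimate and the replicate block, and left out each library in turn. The number of cytosolic enzymes called in cuprizone vehicle against naive vehicle was 4, and 1 to 6 when 1 library was left out. In cuprizone BTKi against naive BTKi it was 1 (Mars), and 0 to 2 when 1 library was left out. Without naive BTKi 1 and after median ratio scaling the 1 call was Tarsl2 instead of Mars, and it was lower (log2 -0.20 and -0.19). The count was 0 there without a filter on low values, where more genes were tested (Mars limma adjusted p = 0.0526). After quantile normalization the count was 2, with Tarsl2 added, and the cause was not tested. The counts of mitochondrial enzymes, and of members in the drug comparisons, were 0 under every alternative run. No called value changed sign. With the replicate number as a block 2 enzymes passed under vehicle, Mars and Lars, while Aars (adjusted p = 0.0633) and Sars (adjusted p = 0.0567) did not. Same-numbered libraries gave correlations of -0.274 to 0.324 over 28 pairs. Of these pairs 8 were over 0.1. The labels state no pairing, and whether the shared numbers mark one was not tested. In 17 of 56 matches of a library to another group, it correlated best with its own number. Chance alone would give this in 1 of 4 matches to a group of 4 libraries and in 1 of 8 matches to a group of 8. Depth limited Pars2 most, at about 191 fragments in the shallowest library (a counting error of 7.24%), and Sars least (0.923%). Near-identical transcripts (at least 90% identity over 300 bases) were found for Iars, among others, with the copy of Iars at 0.00121 FPKM.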
